A study of Mus musculus with 6 samples.

Results

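The genes Zbtb7b and Runx3, which encode opposing regulators of the CD4 and CD8 T cell lineages, were examined in maps of mSin3A made by chromatin immunoprecipitation and sequencing (ChIP-seq) from mouse splenic CD8 T cells. The 4 ChIP libraries came from TCRbeta high, CD8+ cells of wild-type (WT) mice, in conditions 1 and 2, and of Tcf1-/-Lef1-/- mice, in conditions 1 and 2. In the latter (called deficient here) both factors had been removed by Cre recombinase under Cd4 control, which becomes active in thymocytes, so that the cells had matured without them. What distinguishes the conditions is not in the labels, nor are the strain, age and number of mice, so each genotype was represented by 1 library in each condition, with no replicate check. The 2 input libraries were not analysed here. The members were all mSin3A islands, the broad enriched intervals of a deposited list, sharing at least 1 bp with chr3:89170000-89215000 (Zbtb7b) or chr4:134660000-134745000 (Runx3) in the mouse build mm9. There were 17 of them among 54058 islands in the 4 lists, 12 at Runx3 and 5 at Zbtb7b. Gene spans were taken as about chr3:89181600-89197300 on the minus strand and chr4:134676600-134733900 on the plus strand. Distances below are from the gene start, the upper end for Zbtb7b and the lower end for Runx3.

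Zbtb7b encodes ThPOK, a zinc-finger repressor that commits thymocytes to the CD4 helper lineage and holds back CD8 genes. Runx3 encodes a Runt-domain factor that commits cells to the CD8 lineage, silences Cd4 and helps silence Zbtb7b. Runx3 is transcribed from a distal promoter, which serves as the main source of its protein in CD8 T cells, and from a proximal promoter inside the gene. mSin3A is the scaffold of a co-repressor complex that carries histone deacetylases and is brought to DNA by other proteins. Tcf1 and Lef1 are HMG-box factors that act in T cell development, upstream of ThPOK in the CD4 lineage and with Runx3 in Cd4 silencing.

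Promoter sequences are shown because the start of Runx3 lay in an island in all 4 libraries while that of Zbtb7b did so in 1 library of each genotype. They are RefSeq promoters on GRCm38.p6, matched by symbol (2 of 2 genes), with annotated untranslated and coding bases left out. No position was carried over from GRCm38.p6 to mm9. Each is written 5′ to 3′ on the strand of its gene, from chr4:135120395-135120644 and chr4:135152295-135152495 (plus strand) and chr3:89393379-89393476 (minus strand). Capitals mark the letters of a RUNX motif.
Runx3 first start: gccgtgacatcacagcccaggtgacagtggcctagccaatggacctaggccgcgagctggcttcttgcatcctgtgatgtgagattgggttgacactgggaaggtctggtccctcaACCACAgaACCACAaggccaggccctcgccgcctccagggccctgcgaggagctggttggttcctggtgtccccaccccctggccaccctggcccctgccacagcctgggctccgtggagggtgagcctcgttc
Runx3 second start: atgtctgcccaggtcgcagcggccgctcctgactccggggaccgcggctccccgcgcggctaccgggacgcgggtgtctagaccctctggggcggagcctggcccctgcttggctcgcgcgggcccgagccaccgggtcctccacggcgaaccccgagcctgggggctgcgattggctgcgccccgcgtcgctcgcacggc
Zbtb7b first start: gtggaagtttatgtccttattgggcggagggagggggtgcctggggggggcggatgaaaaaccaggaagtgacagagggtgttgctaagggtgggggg
Windows of 300 bases (250 before and 50 after each start) were searched on both strands for RUNX motifs (TGTGGT or TGCGGT), TCF/LEF motifs (CTTTGA or CTTTGT) and the E-box CACGTG (no motif contains another). The first Runx3 start had 2 RUNX matches, set close together and seen above as ACCACA on the printed strand. At least 2 were present in 2.86% of the 32851 RefSeq promoters, and at least 1 in 22.4%. The second Runx3 start and the first Zbtb7b start had 0. The second Zbtb7b start, which is not printed, had 1. TCF/LEF letters were in 31.2% of all promoters and E-box letters in 7.15%, and neither was found in the windows of these 4 starts. A match describes letters and not a bound site. The second Runx3 start had a GC content of 77.3%, against 63.7% at the first start, 59.7% at the first Zbtb7b start and a median of 52.7% over all promoters.

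At Runx3, mSin3A was called over a broad domain in every library, and the called length was shorter in deficient than in WT cells in both conditions. Of the window, 43.0 kb was called in WT condition 1 and 61.0 kb in WT condition 2, against 21.0 kb and 28.0 kb in the deficient libraries. Both WT libraries stood above both deficient libraries. In deficient cells the called length was 0.488 times that of WT in condition 1 and 0.459 times in condition 2. For scale, the genome was divided into fixed tiles of 85 kb, as long as the Runx3 window. Among the 4980 tiles called in all 4 libraries, 11.8% in condition 1 and 12.6% in condition 2 had a called length at least 2-fold shorter in deficient cells. The mean called length per library of these shorter tiles had a median of 6.15 kb in condition 1 and 6.33 kb in condition 2, against 7.70 kb over all 4980 tiles and 38.2 kb at Runx3. Both WT libraries stood above both deficient libraries in 17.7% of the 4980 tiles, so that this order alone was common. As low a ratio as that of Runx3 in both conditions was found in 107 tiles, or 2.15%. Runx3 had more called length than 99.1% and 99.9% of the 10910 tiles with any island in WT and than 94.0% and 96.7% in deficient cells. Of the 646 tiles with a mean of at least 20 kb called per library, 20.3% had both WT libraries above both deficient ones, 17 in condition 1 and 14 in condition 2 had a ratio as low as that of Runx3, and 1 tile, away from Runx3, did so in both.

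**Figure D1:**
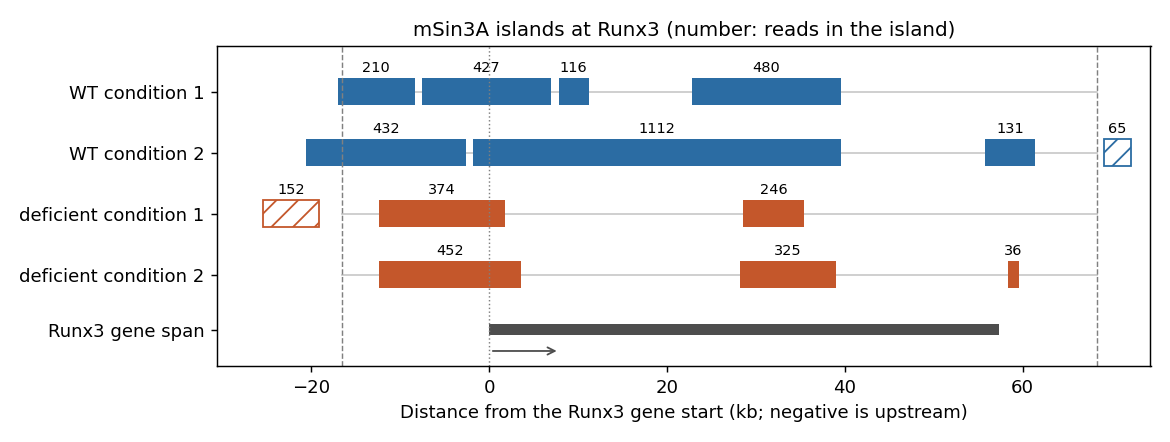
mSin3A islands at Runx3 by distance from the gene start (kb, x axis) in each library (rows). Filled bars are islands in the window (dashed lines) and hatched bars are islands within 5 kb outside it. Numbers are reads, and the arrow gives the direction of transcription. The deficient islands together cover less of the window than the WT islands and leave the stretch from 3.6 to 28.2 kb uncalled.

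The distal promoter end of Runx3 lay inside an island in all 4 libraries. In WT condition 1 this island, chr4:134669001-134683599, held 427 reads and reached from 7.60 kb upstream to 7.0 kb downstream of the gene start. In WT condition 2, chr4:134674801-134716199 held 1112 reads and ran without a break from 1.80 kb upstream to 39.6 kb downstream. It was 41.4 kb wide, which made it the 11th widest and, by reads, the 27th of 11151 islands in that list. The deficient islands were chr4:134664201-134678399, with 374 reads in condition 1, and chr4:134664201-134680199, with 452 reads in condition 2. They began at the same position, 12.4 kb upstream, and ended 1.80 and 3.60 kb downstream of the start. Both WT islands thus extended further into the gene than either deficient island.

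A second stretch called in all 4 libraries lay 28.6 to 35.4 kb downstream of the Runx3 start, inside the gene. It was part of the wide WT condition 2 island and of chr4:134699401-134716199 in WT condition 1, with 480 reads. In deficient cells it was chr4:134705201-134711999 with 246 reads in condition 1 and chr4:134704801-134715599 with 325 reads in condition 2. Within GRCm38.p6 the second RefSeq start of Runx3 lies 31.9 kb beyond the first. That start was not placed on mm9, so whether it lies in this stretch was not tested.

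Parts of the sequence between these stretches were called in both WT libraries and in no deficient library. Over the whole Runx3 window, bases with this pattern came to 17.2 kb, of which 12.8 kb lay in the gene. These were 3.60 to 7.0 kb, 7.80 to 11.2 kb, 22.8 to 28.2 kb and 39.0 to 39.6 kb downstream of the start, together with 4.40 kb at the upstream edge of the window. They made up 27.7% of the 62.0 kb called in any library at Runx3, against 3.90% of all called bases. Bases called in both deficient libraries and in no WT library, 6.28% of all called bases, came to 0 kb at Runx3. Another 19.4 kb, or 31.3%, was called in all 4 libraries, against 16.4% of all called bases. Bases called in 1 library alone were 27.1% at Runx3 and 50.3% of all called bases. These shares move with the called lengths and are not a separate measure of the difference. Such shares in other broadly called stretches were not tested. A stretch of 11.6 kb, 11.2 to 22.8 kb downstream, was called in WT condition 2 alone.

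**Figure D2:**
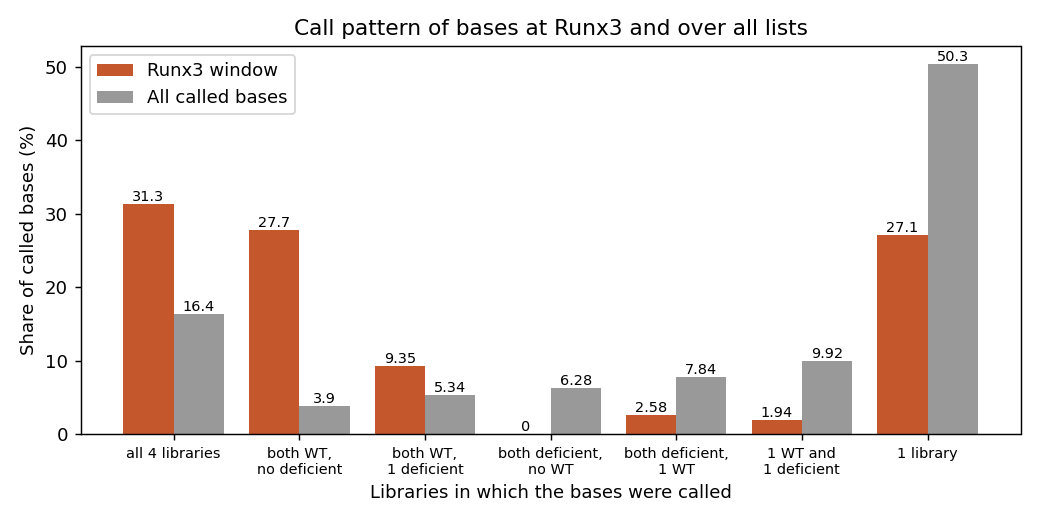
Share of called bases (%, y axis) by the libraries in which they were called (x axis), for the Runx3 window and for all bases called in at least 1 list. Bases called in both WT and no deficient library are 27.7% at Runx3 and 3.90% over all lists, and those called in both deficient and no WT library are 0% and 6.28%. The shares move with the called lengths.

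The deficient calls at Runx3 were nested in the WT calls. In condition 1, 96.2% of the bases called in deficient cells were also called in WT, and in condition 2 this was 97.1%. Over all lists the shares were 51.2% and 50.8%. In the other direction, 46.8% and 44.4% of the WT bases at Runx3 were called in deficient cells of the same condition. WT calls took in 50.6% of the Runx3 window in condition 1 and 71.8% in condition 2. How far calls are nested in other broadly called stretches was not tested. Libraries of 1 genotype shared more: the WT pair had 68.4% of their combined bases in common and the deficient pair 75.0%, whereas pairs of different genotype had 32.6% to 57.5%. Over all lists these shares were 36.5%, 44.1% and 34.6% to 35.6%. Such a share cannot exceed the ratio of the shorter to the longer called length. At Runx3 it therefore moves with the called lengths and is not a separate measure of the difference. All the bases called in deficient condition 1 at Runx3 were called in deficient condition 2 too.

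Reads in the Runx3 islands followed the called length. The islands summed to 1233 reads in WT condition 1, 1675 in WT condition 2, 620 in deficient condition 1 and 813 in deficient condition 2. The lower WT library held more reads than the higher deficient one, an order also found in 24.9% of the merged regions called in all 4 libraries. Ratios were centred on the median log2 ratio of deficient to WT over the 5637 merged regions called in all 4 libraries, which was -0.06 in condition 1 and -0.09 in condition 2. After centring, the sum was 1.91-fold lower in deficient cells in condition 1 (exact 95% interval 1.73 to 2.10, counting error only) and 1.94-fold lower in condition 2 (1.78 to 2.11). Both folds lie just under 2-fold and pass it under some other scalings. They compare sums over islands called separately in each library, whole lengths of 43.4 and 65.0 kb in WT and 21.0 and 28.0 kb in deficient cells, so they move with the called length and are not a second measure of the difference. Per kb of called length the libraries were alike, at 28.4 (condition 1) and 25.8 (condition 2) reads per kb for WT against 29.5 and 29.0 for deficient cells, close to the medians of 26.5 to 28.2 reads per kb over the lists. In the single islands the density was 23.4 to 36.2 reads per kb. The genotypes thus differed in called length at Runx3. Within a condition, density inside the called islands in deficient cells was 1.04 (condition 1) and 1.13 (condition 2) times that of WT. Uncalled stretches do not enter this density, so it does not show that the signal over the whole domain was alike. With only islands deposited, reads outside them are not known, and a lower signal that no longer met the caller's threshold cannot be told apart from an absent one.

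**Figure D3:**
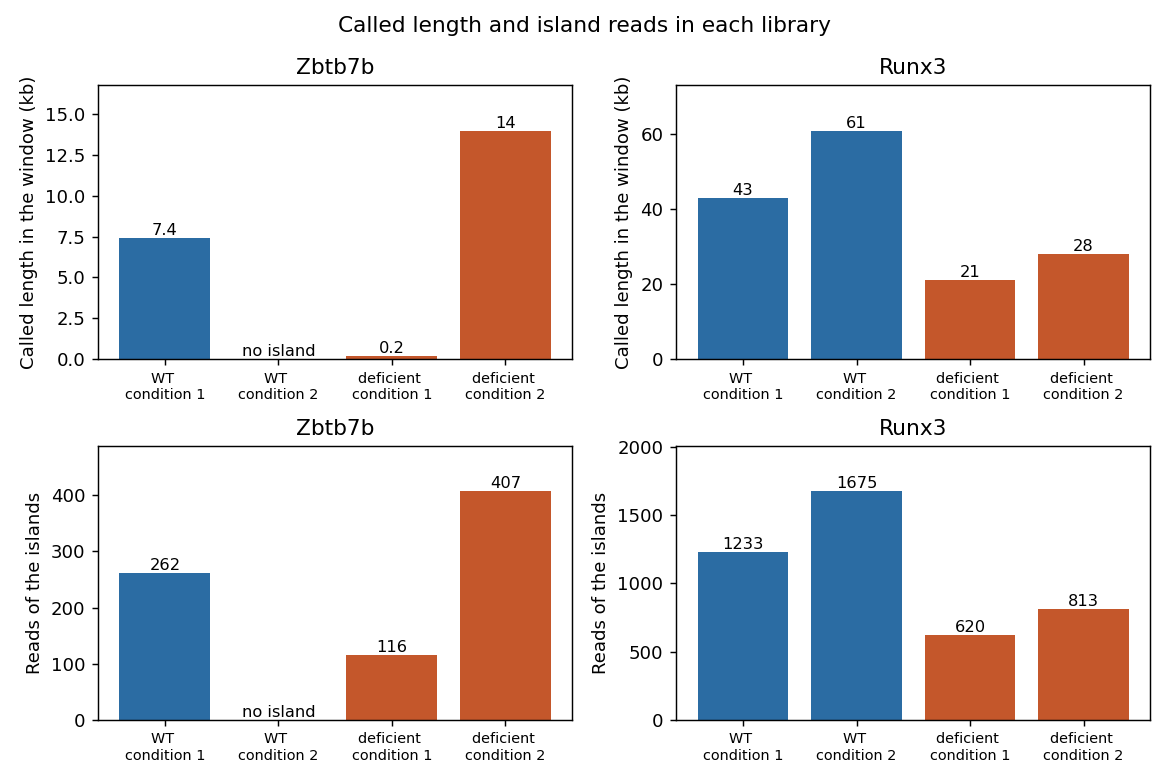
Called length inside the window (kb, upper panels) and reads of the islands overlapping it (lower panels) in each library, as bars from 0; each bar is 1 library, with no error. At Runx3 both WT bars exceed both deficient bars, while at Zbtb7b the order of the genotypes differs between the conditions.

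Reads and called length in the Runx3 window also differed between the conditions, by smaller ratios than between the genotypes. With 1 library for each genotype and condition, neither difference can be told apart from spread between libraries. The condition ratios are not centred. Reads were 1.36 times as many in condition 2 as in condition 1 in WT and 1.31 times in deficient cells, and the called lengths were 1.42 and 1.33 times as long. Within the window, condition 2 was the higher in both genotypes. In deficient cells the conditions were close in the larger merged region described below, which takes in an island outside the window. There they held 772 reads over 27.2 kb in condition 1 and 777 reads over 26.8 kb in condition 2. Over the whole lists, covered length was 64.8 and 61.1 Mb in WT and 65.5 Mb in both deficient libraries, and the lists held 1792952 to 1917097 island reads. These totals count called islands alone. Whether sequencing depth or enrichment bears on the values at Runx3 was not tested.

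After joining overlapping or adjoining islands across the lists, Runx3 had 2 regions of 23510. The larger, chr4:134651201-134716199, was 65.0 kb wide, the 14th widest of the regions called in all 4 libraries, which were 24.0% of the total. WT cells held 1233 reads there in condition 1 and 1544 in condition 2, and deficient cells 772 and 777, where the deficient condition 1 sum takes in an island of 152 reads that lies 2.60 kb outside the window. The centred log2 ratio was -0.61 (exact 95% interval -0.75 to -0.48) in condition 1 and -0.91 (-1.03 to -0.78) in condition 2. Ratios at least 2-fold lower in deficient cells were found in 2.77% of the 5637 shared regions in condition 1 and 3.23% in condition 2, and 2-fold ratios in either direction in 5.57% and 5.96%. The Runx3 region was not among them. A lower ratio than that of Runx3 was seen in 8.39% of shared regions in condition 1 and 4.33% in condition 2, and 65 regions including Runx3 (1.15%) were at least as low in both.

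**Figure D4:**
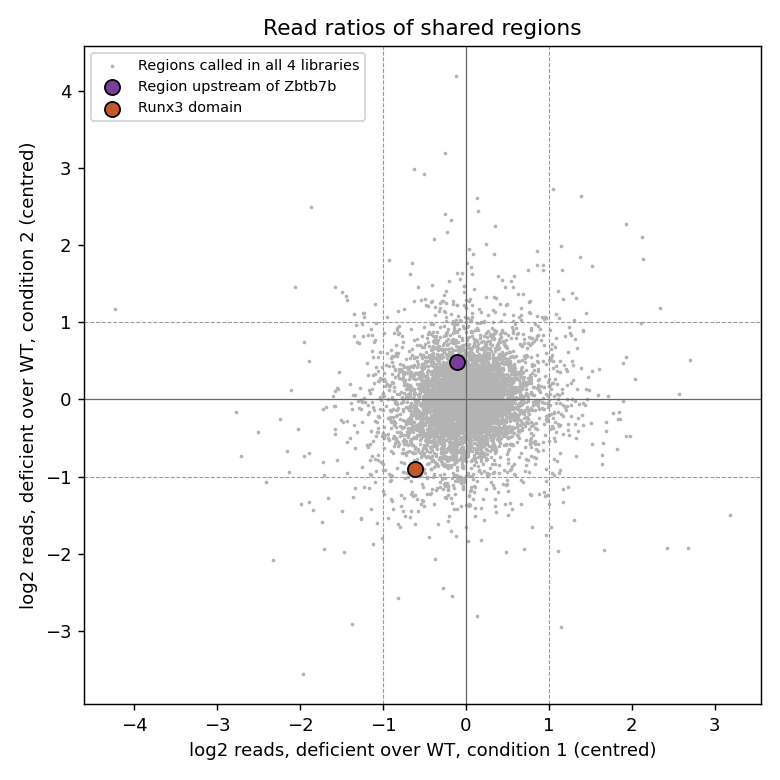
Centred log2 ratio of reads, deficient over WT, in condition 1 (x axis) and condition 2 (y axis) for the 5637 merged regions called in all 4 libraries (points), with 2-fold marked by dashed lines. The Runx3 region lies at -0.61 and -0.91, and the region upstream of Zbtb7b at -0.11 and 0.49.

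At the 3′ end of Runx3 a small region, chr4:134732401-134737999, was called in condition 2 alone. It held 131 reads over 5.60 kb in WT and 36 reads over 1.2 kb in deficient cells. The second was among the weakest islands of its list, with more reads than 1.46% of the islands there. Of all merged regions 176, or 0.749%, were called in these 2 libraries and no other. The 16.2 kb before this region, inside the gene, was not called in any library.

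At Zbtb7b, which genotype had mSin3A calls at the gene start differed between the conditions. The gene start lay in an island in WT condition 1 and in deficient condition 2, and in neither of the other libraries. The WT condition 1 island, chr3:89195001-89198799, held 87 reads at 22.9 reads per kb and reached from 1.5 kb upstream to 2.30 kb downstream of the start. The deficient condition 2 island, chr3:89191801-89204799, held 262 reads at 20.2 reads per kb and covered the WT island whole, from 7.50 kb upstream to 5.50 kb downstream. The first had more reads than 39.8% of the islands in its list and the second more than 91.4%. In density both were in the lower part of their lists, above 34.0% and 15% of islands. The same pattern, called in WT condition 1 and deficient condition 2 and nowhere else, was found in 247 merged regions, or 1.05%. The reads of this region in the other libraries are not known, so no fold can be given.

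**Figure D5:**
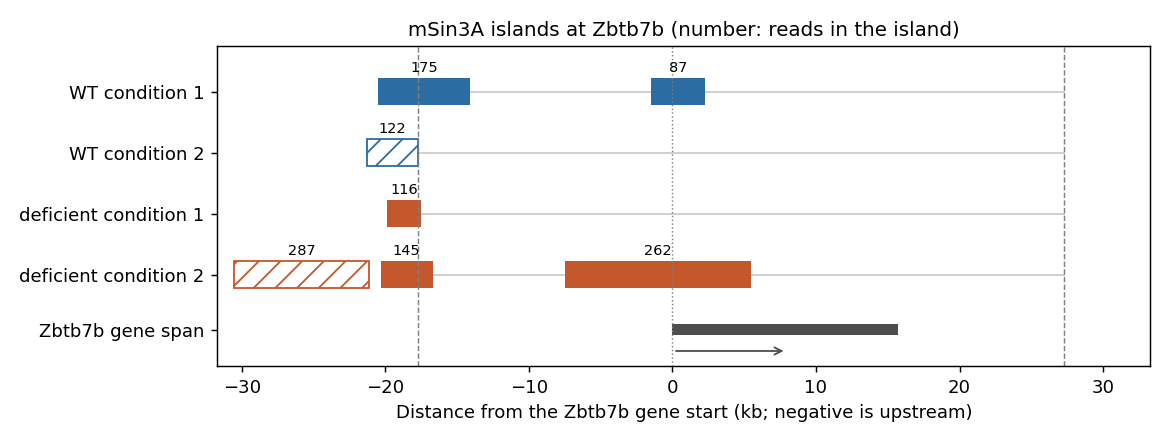
mSin3A islands at Zbtb7b by distance from the gene start (kb, x axis) in each library (rows), drawn as for Runx3. An island covers the start in WT condition 1 and deficient condition 2 only, while the islands 14.1 to 20.5 kb upstream, with the hatched one of WT condition 2 at the window's edge, are found in all 4 libraries.

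Most of the Zbtb7b gene body was free of mSin3A calls. Of the gene's 15.7 kb, 2.30 kb was called in WT condition 1, 5.50 kb in deficient condition 2 and 0 kb in the other libraries. No library had an island from 5.50 kb downstream of the start to the 3′ edge of the window, a stretch of 22.0 kb that takes in the rest of the gene. Over the whole window of 45.0 kb the called length was 7.40 kb in WT condition 1, 0 kb in WT condition 2, 0.2 kb in deficient condition 1 and 14 kb in deficient condition 2. Among tiles of the same size with an island in at least 1 library, 33.6% and 42.1% had no call in the WT libraries and 29.2% and 35.2% in the deficient ones. Tiles of this size without a call were thus common in each library. Where Zbtb7b was called at its start, its window had more called length than most tiles, above 81.5% of them in WT condition 1 and 92.9% in deficient condition 2. The medians there were 2.40 and 2.60 kb.

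The other mSin3A islands near Zbtb7b lay upstream, at the edge of the window. They were chr3:89211401-89217799 with 175 reads in WT condition 1, chr3:89214801-89217199 with 116 reads in deficient condition 1 and chr3:89214001-89217599 with 145 reads in deficient condition 2. In WT condition 2 the matching island, chr3:89215001-89218599 with 122 reads, began 1 bp outside the window and so was not a member. Merged with the next islands outward, these formed chr3:89211401-89227799, called in all 4 libraries. In condition 1 it held 373 reads in WT and 331 in deficient cells, and in condition 2 it held 327 and 432, with a centred log2 ratio of -0.11 (exact 95% interval -0.33 to 0.11) in condition 1 and 0.49 (0.28 to 0.70) in condition 2. The interval of condition 1 includes 0, that of condition 2 does not, and neither ratio reached 2-fold. On this side of Zbtb7b the RefSeq table lists Lenep, Flad1, Cks1b and Shc1 in turn, and which of them the region covers was not tested.

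Summed over the Zbtb7b window, reads were 262 in WT condition 1 against 116 in deficient condition 1, and 407 in deficient condition 2 against no member island in WT condition 2. The sums cannot be read as a fold of mSin3A, because they rest on islands that do not match. In condition 1 the WT sum included the 87 reads of the gene start, where deficient cells had no island, and only 0.2 kb of the 2.40 kb deficient island lay inside the window. Per kb of called length, deficient condition 1 was the higher, with 48.4 against 25.7 reads per kb.

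The recurrence of calls across conditions was set side by side for the genes. At Runx3, WT cells had the longer called length in both conditions. At Zbtb7b the longer called length was that of WT cells in condition 1 and that of deficient cells in condition 2. Inside the Runx3 window of 85 kb, 42.4 kb was called in both WT libraries, and inside the Zbtb7b window of 45 kb, 0 kb. The deficient libraries shared 21.0 kb in the Runx3 window and 0.2 kb in that of Zbtb7b. The edge of the Zbtb7b window cuts the upstream region called in all 4 libraries, so calls shared beyond the edge are not counted here. The levels of ThPOK and Runx3 themselves were not measured here, and the cell type could not be checked on its markers, since an island list holds no expression.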

How the data were processed

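mSin3A ChIP-seq islands of 4 libraries were analysed, 1 for each genotype and condition. Per the submitters' processing notes, FastQC, Bowtie2 2.2.5 and SICER 1.1 were used on mm9. Settings of SICER, and whether inputs were used, were not given in the sources used here. The deposited lists have 4 columns with no header. The last was read as the authors' count of reads per island, unscaled, from its values. Coordinates are printed with 1 added to each deposited start, and widths are end minus start.

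Islands were counted whole. Base patterns used steps of 200 bp, on which all deposited starts fell. Overlapping or adjoining islands of the lists were joined into merged regions. Total sequencing depth is not given, so island reads, 1792952 to 1917097 per library, are the only measure of it. Intervals are exact Clopper-Pearson 95% intervals, for counting error alone. With 1 library in each group no test was made. All islands in the 2 windows were named, by rule. Members, lists and alternatives were chosen with earlier results of these data known. The other lineage genes planned for a count were not placed, because the annotation at hand is on GRCm38, and cell type markers were not scored. Functions were tested on simulated data. Python 3.11.15, numpy 2.4.6, pandas 2.3.3, SciPy 1.17.1 and matplotlib 3.10.9 were used.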

Additional observations from a re-analysis of the deposited data

Results flagged for a closer look

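The region at the Zbtb7b gene start, chr3:89191801-89204799, was called in opposite genotypes in the conditions, with 87 reads in WT condition 1 and 262 reads in deficient condition 2. The difference was not tested. With 1 library in each group, its spread between mice is not known.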

How the results depend on the processing

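Of 45 alternative values, 30 stayed close to the reported one (a read ratio inside its interval, a count or length within 1.5 times). Another 14 moved and 1, the Zbtb7b read ratio per kb, was counted as reversed. Both Runx3 read ratios per kb also changed sign, but were counted among those that moved. The cause of these shifts was not tested. The shorter called length and fewer reads of deficient cells at Runx3 kept their direction under every alternative except reads per kb, where the log2 ratio was 0.055 in condition 1 and 0.17 in condition 2. For islands overlapping the gene span the Runx3 log2 ratios were -0.66 and -0.59, and the called length ratio in condition 1 was 0.316. Widening the window by 5 kb on each side, chosen after seeing the data, brought in the island of 152 reads and gave -0.61 in condition 1. The Runx3 reads, reported just under 2-fold, passed it when scaled by total island reads (-1.03 and -1.14 in conditions 1 and 2) and, in condition 2, as raw reads (-1.04), in the upper 50% of each list (-1.02) and in the widened window (-1.01). At Zbtb7b in condition 1, the log2 ratio of the sums, -1.11, became 0.91 per kb, -4.20 with reads in proportion to the bases inside the window, and -0.53 in the upper 50% of each list. The called length ratio of 0.0270 became 0 in the gene span and 0.0556 in the upper 50%. Regions called in all 4 libraries at Zbtb7b went from 1 to 0 in the gene span and in the upper 50%, and merged regions from 2 to 1 in the gene span. For Zbtb7b in condition 2 the window itself gives no ratio, and the widened window gave a log2 ratio of 2.59, from 694 deficient and 122 WT reads over islands that differ in extent. The genotypes were compared within each condition, and with 1 library for each genotype and condition no paired test was possible. Whether the libraries of a condition were matched is not in the labels. Depth limits what can be said of uncalled stretches, whose reads are not known.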

Other observations

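Further broad islands lay upstream of Runx3, outside the window, in 3 libraries. They were chr4:134620001-134643599 with 709 reads in WT condition 1 (33.0 to 56.6 kb upstream of the gene start), chr4:134622601-134646999 with 627 reads in deficient condition 1 (29.6 to 54.0 kb) and chr4:134618401-134641799 with 637 reads in deficient condition 2 (34.8 to 58.2 kb). In WT condition 2, the library with the widest Runx3 island, the nearest island on this side outside the window was chr4:134618001-134619399, 57.2 to 58.6 kb upstream, with 37 reads. These islands were of similar width, 23.4 to 24.4 kb, in both deficient libraries and 1 WT library. The gene content there was not placed on mm9. Upstream of Zbtb7b, a compact island beginning at 89221201 or 89221401 on chromosome 3 was dense in 3 libraries, at 66.0 (condition 1) and 78.9 (condition 2) reads per kb for WT and 67.2 for deficient condition 1. In deficient condition 2 the island over it, chr3:89218401-89227799, was wider, at 9.40 kb, and had 30.5 reads per kb.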
